A study of Mus musculus with 3 samples.

Results

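Capillary endothelial cells of the mouse hypothalamus were described here across 3 single-cell RNA libraries, PF, HS and QS. Members were chosen by their measured UMIs of marker genes. A cell barcode was taken as capillary when at least 4 of the 6 genes Cldn5, Flt1, Slco1a4, Itm2a, Ly6c1 and Abcb1a had a UMI (unique molecular identifier, 1 counted RNA molecule). It also had to hold under 3 UMIs of Plvap, a gene of fenestrated vessels, at most 2 of the 5 venous genes Ackr1, Vwf, Lrg1, Slc38a5 and Lcn2, and at most 1 of the 5 arterial genes Gkn3, Bmx, Sema3g, Hey1 and Vegfc. None of 7 genes of other cell types (Kcnj8, Myh11, P2ry12, Aqp4, Ccdc153, Mog and Dcn) could reach 2 UMIs. Among the 36467 barcodes with at least 500 UMIs and at most 20% mitochondrial UMIs, 7082 met this rule. Because the rule reads measured RNA, the levels of its own genes and the position of capillary against venous and arterial cells are given as descriptions.

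All animals were male mice aged 8 weeks. PF mice served as controls matched for food intake, HS mice had been exposed to heat, and QS mice were sampled during recovery from that exposure. No transgene or drug is named for any group, and every hypothalamus was digested with collagenase II and dissociated mechanically before capture on the 10x Chromium 3′ platform. Each group had 1 library. The sources used here do not state the number of mice behind a library, the strain, the temperature or the length of the recovery. No difference between groups could therefore be tested, and library and group cannot be told apart. Mice kept at room temperature (RT) were not analysed here.

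Brain capillaries carry the blood-brain barrier. Their endothelial cells are sealed by tight junctions, have few transcytotic vesicles, and move glucose, amino acids, iron and lipids through dedicated transporters while efflux pumps return lipophilic compounds to the blood. Wnt/beta-catenin signalling keeps this programme on, and the cells change gradually from an arterial to a venous character along the vessel. They also meet circulating glucocorticoids and cytokines first, and respond to interferons with antiviral and antigen-presentation genes.

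The PF library contributed 2520 members, HS 2331 and QS 2231. Members made up 19.9% of PF barcodes past the filters (exact Clopper-Pearson 95% interval 19.2 to 20.6), 18.9% of HS barcodes (18.3 to 19.7) and 19.4% of QS barcodes (18.7 to 20.1). These intervals, like all that follow, cover counting error only, and these 3 overlapped. A median member held 4440, 4772 and 4531 UMIs in PF, HS and QS, of which 2.46%, 2.38% and 2.07% were mitochondrial. Summed over members, the libraries gave 13354660, 13224084 and 12207992 UMIs. Levels below are CPM, the UMIs of a gene per 1000000 UMIs summed over the members of a library. HS and PF shared 37 barcode sequences, QS and PF 51, and QS and HS 40, of which 2 in each pair were members in both.

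Endothelial identity, though not capillary against venous or arterial identity, was checked with 12 endothelial genes that the rule did not use. These genes were Pecam1, Cdh5, Kdr, Tie1, Tek, Emcn, Erg, Egfl7, Esam, Eng, Robo4 and Ushbp1. They made up a median of 0.622% of a PF member's UMIs, 0.588% in HS and 0.692% in QS. A minor peak lay close to 0. In PF 153 members (6.07%), in HS 138 (5.92%) and in QS 74 (3.32%) drew under 0.2% of their UMIs from these genes. Their RNA was rich in markers of other cells. Microglia markers summed to 5417 CPM in PF, 2658 in HS and 3486 in QS, while the 12 endothelial genes summed to only 416, 280 and 704 CPM. MHC class II genes, which mark antigen-presenting cells, summed to 4828, 1483 and 3883 CPM, and neuron markers to 1124, 1526 and 924 CPM.

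**Figure D1:**
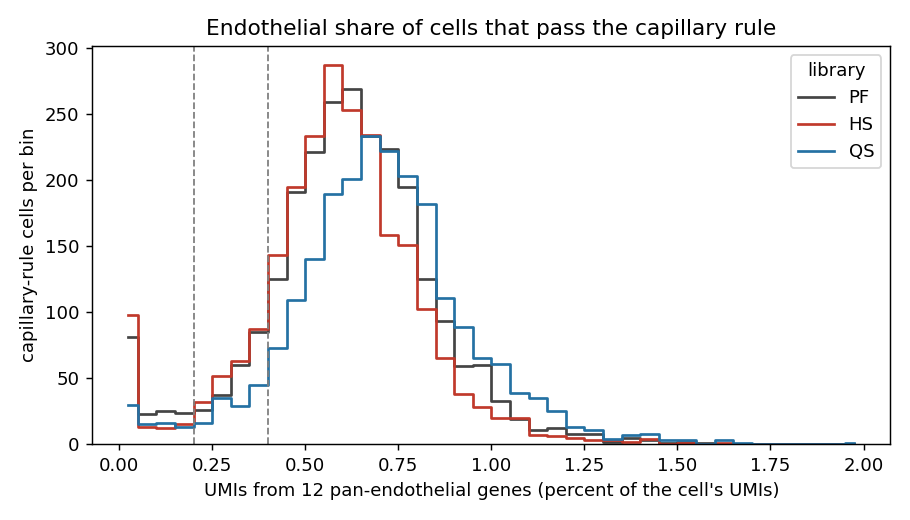
Number of cells per bin (vertical axis) by the percentage of the cell's UMIs that came from 12 pan-endothelial genes (horizontal axis), for the PF (grey), HS (red) and QS (blue) libraries. Cells above the last bin are not drawn, and the dashed lines mark 0.2% and 0.4%. A small peak near 0 stands apart from the main peak in each library, and the 0.4% line falls on the lower slope of the main peak.

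For the comparisons between groups, a limit of 0.4% was therefore added after the data were seen. It left 6150 endothelium-rich members, 2159 in PF, 1959 in HS and 2032 in QS, which were 17.1% (16.4 to 17.7), 15.9% (15.3 to 16.6) and 17.6% (16.95 to 18.4) of the barcodes past the filters. The HS interval did not overlap that of QS. The limit took away 14.3% of PF, 16.0% of HS and 8.92% of QS members, some of which lay on the slope of the main peak. In the endothelium-rich members the microglia markers summed to 517, 427 and 381 CPM in PF, HS and QS, and the MHC class II genes to 73.2, 39.4 and 65.7 CPM. Oligodendrocyte markers lay above the microglia sums, at 776, 727 and 758 CPM, and astrocyte markers summed to 226, 240 and 224 CPM. Haemoglobin RNA remained and differed between libraries, at 1796 CPM in PF, 708 in HS and 2894 in QS. Pericyte markers summed to 144, 77.1 and 82.8 CPM and smooth muscle markers to 158, 122 and 85.6 CPM. The part of these cells or of free RNA in the differences below was not tested, beyond the values given beside them. An alternative over all rule members, given at the end, took away 5% of UMIs as free RNA.

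The 6 rule genes are given first, as a description. Cldn5, the main claudin of brain endothelial tight junctions, stood at 3818 CPM in PF, 3716 in HS and 4750 in QS among endothelium-rich members. The same gene stood at 22.7, 16.3 and 19.7 CPM in microglia of the same libraries. Flt1, a VEGF receptor, stood at 3869, 4264 and 4158 CPM, and Ly6c1, a surface glycoprotein of capillary and arterial cells, at 4380, 4251 and 3839 CPM. The organic anion transporter Slco1a4 stood at 1811, 1848 and 2260 CPM, Itm2a at 3915, 3810 and 4489 CPM, and the efflux pump gene Abcb1a at 726.5, 797 and 832 CPM. Cldn5, Slco1a4 and Itm2a were highest in QS, and Ly6c1 was lowest there.

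At the edge of the rule, the 239 PF members with exactly 4 of the 6 markers had a median of 0.298% pan-endothelial UMIs, against 0.0271% in the 292 otherwise passing barcodes with 3. In HS 207 barcodes had 4 markers and 268 had 3, with medians of 0.274% and 0.0198%. In QS the numbers were 157 and 164, with 0.466% and 0.0259%. At the venous limit no such step was seen. The 474 PF, 445 HS and 361 QS members with 2 venous genes had medians of 0.615%, 0.583% and 0.683%, and the 220, 225 and 114 barcodes with 3 had 0.580%, 0.563% and 0.632%. At the arterial limit the 647, 600 and 542 members with 1 arterial gene had 0.609%, 0.600% and 0.679%, and the 298, 293 and 265 barcodes with 2 had 0.590%, 0.595% and 0.661%. Cells on both sides of these limits were thus endothelial by these genes.

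Members differed among themselves along the arterial to venous axis. Each endothelium-rich member was thinned to 3000 UMIs, leaving 1435 PF, 1389 HS and 1452 QS cells, and was called venous-leaning with 1 or 2 venous genes and no arterial gene, or arterial-leaning with 1 arterial and no venous gene. Venous-leaning cells were 47.5%, 45.4% and 40.6% of PF, HS and QS cells, and arterial-leaning cells 9.13%, 8.71% and 9.02%. Cells with neither made up 37.4%, 39.2% and 44.0%, and cells with both 6.06%, 6.62% and 6.41%. These shares move with the venous genes' own RNA level, so a level and a cell number cannot be told apart in them.

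Genes that the rule did not use were ordered along these parts in each library. Alpl, an alkaline phosphatase of the arterial side, stood at 165 CPM in arterial-leaning, 89.6 in neither and 42.1 in venous-leaning PF cells. The HS values were 157, 58.7 and 29.1 CPM, and the QS values 232, 90.3 and 40.2 CPM. Efnb2, the arterial ephrin ligand, had the same order, with 115, 71.5 and 48.0 CPM in PF, 79.9, 69.1 and 33.8 CPM in HS, and 117, 73.0 and 35.7 CPM in QS. Nr2f2, a transcription factor of venous identity, had its highest level in venous-leaning cells, with 83.7, 75.5 and 109 CPM in PF, HS and QS against 33.1, 30.3 and 43.3 CPM in arterial-leaning cells. Car4, a carbonic anhydrase at the capillary surface, was higher on the venous side in every library, at 1121 against 415 CPM in PF, 1099 against 548 in HS and 1690 against 667 in QS. Mfsd2a, a lipid transporter that restrains transcytosis, showed little change along the parts, with 196, 216 and 220.3 CPM in PF. The venous-side values rest on more cells than the arterial-side values, where 1 UMI amounted to 2.55 CPM in PF.

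**Figure D2:**
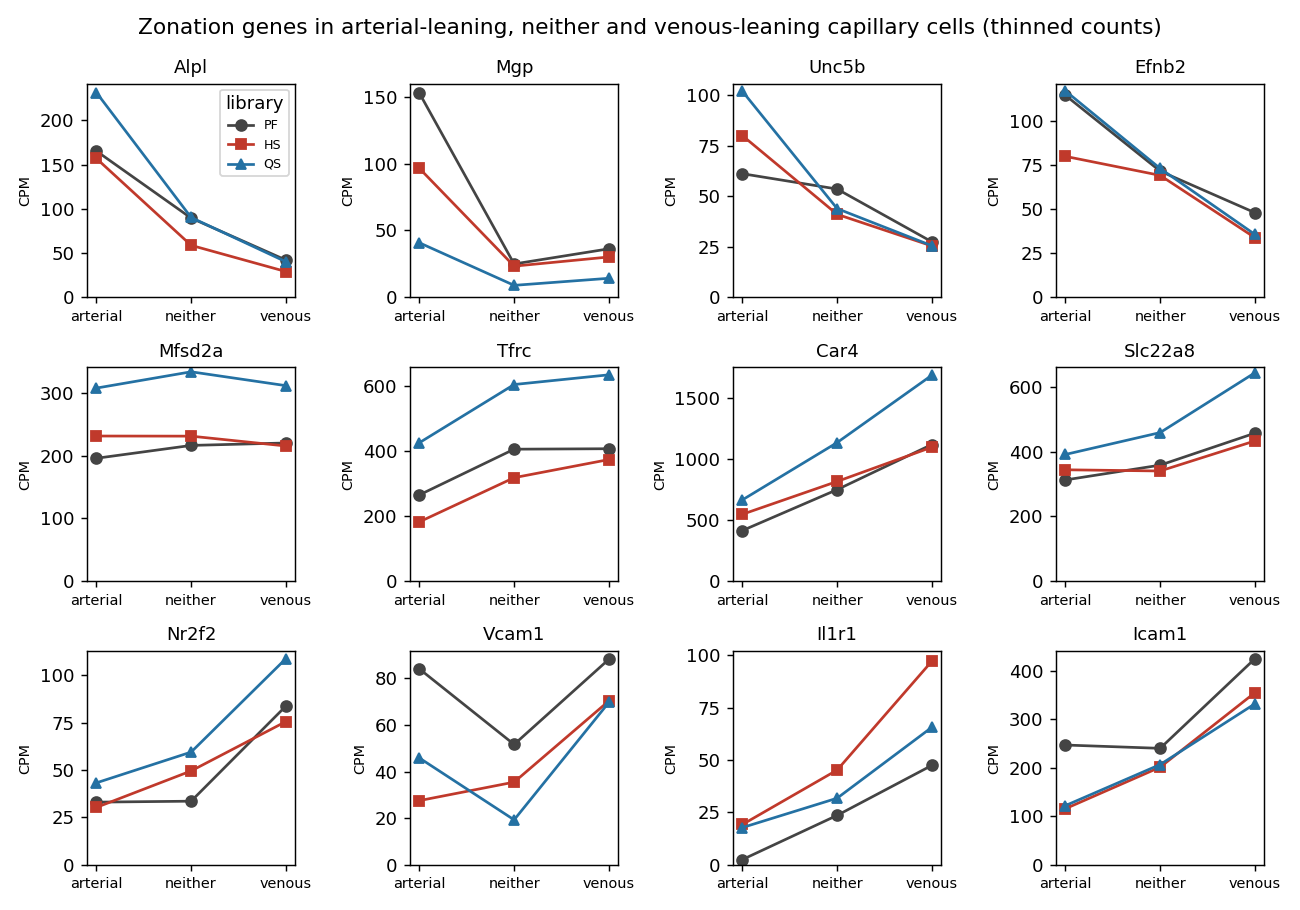
CPM from counts thinned to 3000 UMIs per cell (vertical axes, each from 0) in arterial-leaning, neither and venous-leaning capillary cells (horizontal axes) for 12 zonation genes; lines join the values of 1 library (PF grey circles, HS red squares, QS blue triangles). Alpl and Efnb2 descend and Nr2f2 and Car4 ascend from the arterial to the venous side in all 3 libraries.

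Members were then set beside the endothelial cells outside the venous and arterial limits. The venous gate (at least 3 venous genes) held 525, 499 and 250 barcodes in PF, HS and QS, and the arterial gate (at least 2 arterial genes) 901, 877 and 761. Their CPM are given over the barcodes that also passed the 0.4% endothelial limit. A gene is called different here when its CPM ratio is at least 1.5, the exact 95% interval excludes 1, and the higher side has at least 30 UMIs and 10 CPM. Among rule members 4.8% of the 8516 genes tested were called higher than in the venous gate in all 3 libraries, and 2.29% lower. Against the arterial gate 4.4% of 8641 genes were called higher and 5.05% lower. Among endothelium-rich members 2.26% of 8290 genes were called higher and 2.58% lower than in the venous gate, and 3.4% of 8414 higher and 5.8% lower than in the arterial gate, so the balance against the venous gate turned. Cxcl12, a chemokine of capillary and arterial cells, stood at 8.00, 5.66 and 8.09 times the venous level in PF, HS and QS endothelium-rich members. Ifitm1, an interferon-induced membrane gene, stood at 0.0311, 0.0277 and 0.0226 of it, and Ptgs2, which makes prostaglandin precursors in fever, at 0.0472, 0.0714 and 0.0354. The interleukin-1 receptor gene Il1r1 stood at 0.0971, 0.110 and 0.165 of the venous level. Against arterial cells, Car4 stood at 8.42, 8.32 and 8.12 times and Ndnf, a secreted neurotrophic factor, at 5.58, 6.70 and 6.39 times. The matrix genes Mgp and Eln stood at 0.0385, 0.0335 and 0.0202 and at 0.0735, 0.0743 and 0.0567 of the arterial level. The gates were cut from the same cells and depend on depth, so these ratios are a description.

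Between HS and PF, 6 of 22 genes on the glucocorticoid list were called higher in HS, led by Zbtb16, and 3 of 36 interferon and 3 of 18 MHC class I genes were called lower, in the endothelium-rich members. Most called genes lay outside these lists. Over all rule members 212 of 9053 genes were called higher (2.34%) and 131 lower (1.45%). Many of the UMIs behind these calls lay in the members poor in endothelial RNA. Pomc, a neuropeptide precursor, had 27.3 CPM in PF against 154 in HS, and 82.2% of its HS UMIs lay in members under 0.4%. For Col25a1, a collagen known from neurons, at 44.2 and 202 CPM, that share was 98.3% in HS. Cd74, the MHC class II invariant chain, had 349 CPM in PF against 127 in HS, with 90.6% and 86.7% of its UMIs in those members. In endothelium-rich members Cd74 stood at 39.0, 20.9 and 39.7 CPM in PF, HS and QS, and HS was still called lower than PF, at 0.536 (0.454 to 0.631), as were H2-Aa and H2-Eb1. In endothelium-rich members 52 of 8441 genes were called higher in HS (0.616%) and 60 lower (0.711%). With the looser limit of 0.2% the numbers were 82 and 54. The median log2 ratio over all genes tested was -0.01 in the endothelium-rich members.

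Zbtb16, a zinc-finger transcription factor induced by glucocorticoids (ENSMUSG00000066687, mm10 chr9:48654297-48836222, minus strand), had the widest range of the endothelial genes named here. It stood at 27.99 CPM in PF, 179.9 in HS and 5.45 in QS endothelium-rich members. HS lay at 6.43 times the PF level (95% interval 5.70 to 7.26), and QS at 0.195 of it (0.146 to 0.257). After thinning, 6.55%, 36.1% and 1.24% of PF, HS and QS cells had a Zbtb16 UMI, and without thinning 11.4%, 48.5% and 2.76%. Microglia of the same libraries, with the same thinning, had it in 2.41%, 4.23% and 2.34% of cells. The QS share was thus no higher than in microglia and was not told apart from free RNA. The arterial-leaning, neither and venous-leaning parts had similar HS levels, at 209, 176 and 173 CPM. Cells of the venous gate stood at 40.9, 226 and 7.75 CPM and of the arterial gate at 41.5, 205 and 11.7 CPM.

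Other glucocorticoid-inducible genes differed less. Tsc22d3, a leucine-zipper regulator (ENSMUSG00000031431, chrX:140539528-140600659, minus strand), stood at 246, 418 and 197 CPM in PF, HS and QS, and HS lay at 1.70 times PF (1.62 to 1.78). Fkbp5, a cochaperone of the glucocorticoid receptor, stood at 3.91, 10.1 and 1.61 CPM, a ratio of 2.59 (1.81 to 3.77) for HS against PF from few UMIs. Sgk1, a kinase widely used as a glucocorticoid reporter, stood at 653, 654 and 599 CPM, with an HS/PF ratio of 1.001 (0.969 to 1.04). Of the 22 genes tested from the glucocorticoid list, 6 were called higher in HS (Zbtb16, Fkbp5, Tsc22d3, Map3k6, Sult1a1 and Angptl4) and 0 lower, and 16 lay above a ratio of 1. The list's median log2 ratio was 0.17. The list as a whole was thus uneven, with Zbtb16 far above the other members.

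Several genes outside this list were called higher in HS. Tmem252, a small transmembrane protein gene (ENSMUSG00000048572, chr19:24674008-24682233, plus strand), stood at 205, 417 and 96.1 CPM in PF, HS and QS, with HS at 2.04 times PF (1.94 to 2.14) and QS at 0.469 of PF (0.436 to 0.505). Scgb3a1, a secretoglobin (ENSMUSG00000064057, chr11:49663610-49665118, plus strand), stood at 85.3, 148 and 36.6 CPM, with HS at 1.73 times (1.60 to 1.88) and QS at 0.429 (0.381 to 0.482). Both genes were thus highest in HS and lowest in QS, the same order as Zbtb16. Both were higher in the venous gate, where Tmem252 stood at 568, 1138 and 378 CPM and Scgb3a1 at 162, 375 and 86.3 CPM. Within the members Tmem252 stood higher in HS than in PF in each part, at 117 and 397 CPM in arterial-leaning, 165 and 389 in neither and 221 and 465 in venous-leaning cells. Scgb3a1 did so in the neither part, at 65.3 and 92.4 CPM, and in venous-leaning cells, at 119.9 and 225 CPM, while arterial-leaning cells had 127 CPM in PF and 49.6 in HS.

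Tbc1d4, a regulator of glucose transporter traffic, stood at 204 CPM in PF, 352 in HS and 171 in QS, a ratio of 1.73 (1.64 to 1.82) for HS against PF. Adamts9, a secreted metalloprotease, stood at 45.9, 90.2 and 37.5 CPM, a ratio of 1.97 (1.77 to 2.19). Fas, the death receptor gene, stood at 106, 174 and 81.3 CPM with 1.65 (1.53 to 1.78), and Ccdc85a at 92.4, 162 and 80.5 CPM with 1.75 (1.62 to 1.89). Il1r1, through which interleukin-1 raises prostaglandin synthesis in brain vessels, stood at 41.1, 75.02 and 57.2 CPM, and HS lay at 1.82 times PF (1.62 to 2.049). Its level in the venous gate was about an order of magnitude above this, at 424, 685 and 347 CPM. Within the members it was higher in HS than in PF in venous-leaning cells, at 97.2 against 47.5 CPM, and in cells with neither, at 45.3 against 23.6 CPM.

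**Figure D3:**
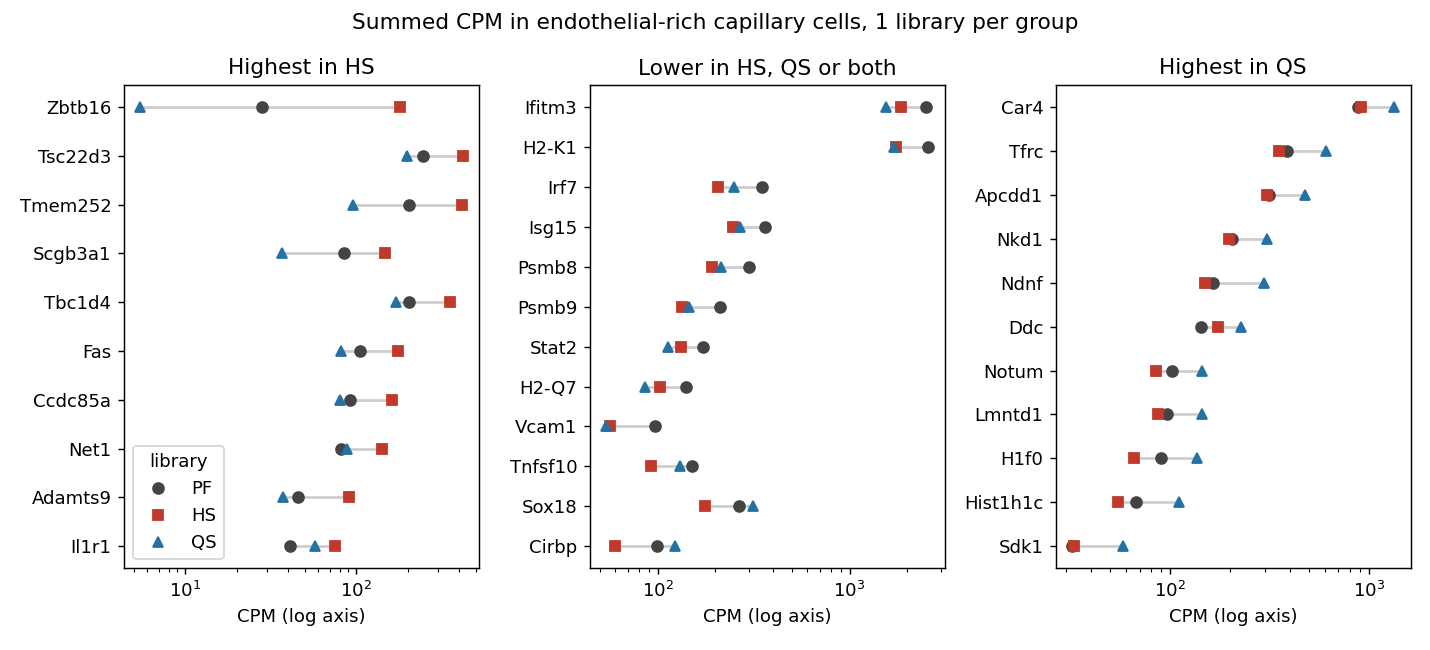
CPM (horizontal, log axis) of named genes in endothelium-rich capillary cells, with 1 point per library (PF grey circles, HS red squares, QS blue triangles) and a line spanning the 3 values; there is no error bar because each group has 1 library. Zbtb16 spans 5.45 to 179.9 CPM, while Ifitm3 and H2-K1 are highest in PF and Car4, Tfrc and Ndnf are highest in QS.

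Of the 22 heat shock chaperone genes tested, 0 were called in either direction between HS and PF, 19 lay above a ratio of 1, and the median log2 ratio was 0.22. A count of 0 of 22 is near the background of 0.616% higher and 0.711% lower. Hsp90ab1, a constitutive HSP90, stood at 2891 CPM in PF, 3964 in HS and 3575 in QS, a ratio of 1.37 (1.35 to 1.39) for HS against PF. Hspa8, the constitutive HSP70, stood at 2279, 2701 and 2102 CPM, a ratio of 1.19 (1.17 to 1.21). The stress-inducible Hspa1a, whose reads can be split with its near-identical copy Hspa1b, stood at 7246, 7548 and 6151 CPM, a ratio of 1.04 (1.03 to 1.05). Its level was high in PF as well, and so was that of the immediate early gene Fos, at 6206 CPM in PF, 5566 in HS and 5067 in QS. The part of enzymatic dissociation in these levels was not tested. Cirbp, an RNA-binding protein gene known to be induced by cold (ENSMUSG00000045193, chr10:80165985-80172786, plus strand), stood at 99.3, 59.8 and 123 CPM, with HS at 0.603 of PF (0.546 to 0.665).

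Most interferon-response genes lay below their PF level in HS. In endothelium-rich members 34 of the 36 genes of the list lay under a ratio of 1, with a median log2 ratio of -0.31. The genes Irf7, Ifit2 and Ifit3b were called lower and 0 were called higher. Over all rule members the median was -0.24, with Irf7 called lower and Cxcl10 called higher, and 74.98% of the HS UMIs of Cxcl10 lay in members under 0.4%. Irf7, the transcription factor that amplifies type I interferon responses (ENSMUSG00000025498, chr7:141262706-141266481, minus strand), stood at 348 CPM in PF, 206 in HS and 249 in QS. HS lay at 0.592 of PF (0.562 to 0.624). The arterial-leaning, neither and venous-leaning parts each had less Irf7 in HS than in PF, with 445, 381 and 329.9 CPM in PF against 239.7, 228 and 204 CPM in HS. Arterial and venous gates stood at 463 and 244 CPM in PF against 300.4 and 172 CPM in HS. Microglia stood at 77.8, 63.6 and 70.2 CPM in PF, HS and QS.

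Other interferon genes were lower in HS without reaching the size set. Isg15, a ubiquitin-like modifier, stood at 364, 248 and 267 CPM in PF, HS and QS, with HS at 0.681 of PF (0.648 to 0.715). Ifitm3, a membrane protein that blocks viral entry (ENSMUSG00000025492, chr7:141009586-141010770, minus strand), stood at 2511, 1845 and 1552 CPM, with HS at 0.735 (0.721 to 0.748). Bst2, which tethers virus particles to the cell, stood at 339.7, 271 and 291 CPM, with HS at 0.799 (0.761 to 0.839). Ifit2, an RNA-binding effector, passed the size at 41.4, 23.8 and 24.0 CPM, with HS at 0.575 (0.492 to 0.672). Ifit3b stood at 49.9, 32.5 and 38.3 CPM and is uncertain, since it shares near-identical sequence with Ifit3.

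MHC class I and immunoproteasome genes also lay lower. All 18 genes tested lay under a ratio of 1 between HS and PF, and the median log2 ratio was -0.49 in endothelium-rich and -0.46 in all rule members. The genes H2-Q4, Psmb9 and Psmb8 were called lower. Psmb9 and Psmb8 encode catalytic subunits that the immunoproteasome uses to cut peptides for MHC class I. Psmb9 (ENSMUSG00000096727, chr17:34181987-34187764, minus strand) stood at 210.1, 135 and 146 CPM in PF, HS and QS, with HS at 0.641 of PF (0.600 to 0.684). Psmb8 stood at 300.2, 193 and 213 CPM, with HS at 0.643 (0.608 to 0.679). The classical class I gene H2-K1 (ENSMUSG00000061232, chr17:33996017-34000347, minus strand) stood at 2578, 1749 and 1703 CPM, with HS at 0.679 (0.666 to 0.691), and its light chain B2m at 1716, 1335 and 1344 CPM, with HS at 0.778 (0.761 to 0.795). H2-K1 reads can be split with related class I genes.

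The sequences before several of these genes are shown because the list members were lower together in HS and QS. Windows from 250 bases before to 50 bases after each annotated start (RefSeq, GRCm38.p6) were searched on both strands for GAAANNGAA, the core of the interferon-stimulated response element, counting a gene when any of its windows matched. Of the 36 interferon genes 27 were in the table and 20 of them (74.1%) held a match, against 9.76% of all 27025 genes. Of the 18 MHC class I and immunoproteasome genes 16 were in the table and 5 (31.3%) held one. Capitals mark the match; it is the reverse complement of these letters where the match lies on the other strand, and overlapping matches run together. The genes shown were picked from those with a match and do not stand for their lists. Isg15 (chr4:156200856-156200916, minus strand), Bst2 (chr8:71537568-71537622, minus strand), Ifit3 (chr19:34583354-34583455, plus strand) and Stat2 (chr10:128270257-128270305, plus strand) are from the interferon list. B2m (chr2:122147528-122147576, plus strand) and H2-T23 (chr17:36032796-36032844, minus strand) are from the class I list, and the Ifitm3 stretch (chr7:141010715-141010744, minus strand) begins at its annotated start.
Isg15: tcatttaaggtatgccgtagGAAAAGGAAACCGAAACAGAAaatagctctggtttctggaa
Ifit3: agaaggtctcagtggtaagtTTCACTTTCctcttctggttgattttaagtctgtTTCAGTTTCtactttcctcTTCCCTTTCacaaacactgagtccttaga
Bst2: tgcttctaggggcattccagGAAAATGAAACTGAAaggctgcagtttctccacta
Stat2: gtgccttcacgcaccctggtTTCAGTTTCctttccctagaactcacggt
Ifitm3: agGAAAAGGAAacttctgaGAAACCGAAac
B2m: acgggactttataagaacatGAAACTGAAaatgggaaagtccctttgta
H2-T23: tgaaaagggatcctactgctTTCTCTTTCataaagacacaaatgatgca
Isg15 holds 3 matches within this stretch and Ifit3 3 separate ones. The Ifit3b stretch (chr19:34607750-34607851, plus strand) has the same letters as that of Ifit3. No match lay in the windows of Irf7, Ifit2, H2-K1, Psmb8 or Psmb9, which says only that these letters are not there. A match is a description and says nothing of binding in these cells.

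Vcam1, an adhesion molecule that captures leukocytes (ENSMUSG00000027962, chr3:116109949-116129688, minus strand), stood at 97.4 CPM in PF, 56.3 in HS and 53.9 in QS. HS lay at 0.578 of PF (0.522 to 0.639) and QS at 0.553 (0.5002 to 0.612). Capillary cells held little of it: after thinning, 10.1%, 6.77% and 7.65% of PF, HS and QS cells had a Vcam1 UMI, and microglia had it in 7.38%, 5.17% and 4.20%. Without thinning the capillary shares were 15.1%, 10.6% and 9.45% and the microglia shares 16.3%, 9.91% and 8.51%. The venous gate stood at 1270, 747 and 999.7 CPM. The capillary shares lie close to the microglia shares, and the Vcam1 levels of capillary cells were not told apart from free RNA here. Sox18, an endothelial transcription factor (ENSMUSG00000046470, chr2:181669836-181671640, minus strand), stood at 265, 177 and 316 CPM in PF, HS and QS, with HS at 0.666 of PF (0.629 to 0.706). Tnfsf10, a death receptor ligand, stood at 151, 91.8 and 131 CPM, with HS at 0.608 (0.562 to 0.658), and Slc26a10, of a family of anion exchangers, at 56.2, 29.3 and 45.1 CPM, with HS at 0.521 (0.454 to 0.598).

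Of 27 blood-brain barrier transporter genes and 17 junction genes tested in endothelium-rich members, 0 were called in either direction between HS and PF. The median log2 ratios were 0.01 and 0.02. Over all genes 0.616% were called higher and 0.711% lower, so a count of 0 in lists of this size is near the background. The glucose transporter Slc2a1 stood at 1769 CPM in PF, 2160 in HS and 2003 in QS, a ratio of 1.22 (1.20 to 1.25) for HS against PF. The efflux pump Abcg2 stood at 741, 891 and 773 CPM, a ratio of 1.20 (1.17 to 1.24), and the amino acid transporter Slc7a5 at 819, 902.5 and 826 CPM, a ratio of 1.10 (1.07 to 1.13). Tjp1, the scaffold under tight junctions, stood at 714, 868 and 776 CPM, a ratio of 1.22 (1.18 to 1.25). Ocln stood at 236, 244 and 278 CPM and Cdh5 at 315, 326 and 328 CPM. Cdh5 is among the pan-endothelial genes whose share defined the endothelium-rich members. The levels of such genes in these members were thus partly set by that choice. Over all rule members, chosen without that share, 0 transporter and 0 junction genes were called between HS and PF. The median log2 ratios there were 0.005 and -0.02.

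Between QS and PF, the capillary genes Tfrc and Car4, the Wnt target Apcdd1 and the secreted factor gene Ndnf were called higher in QS in endothelium-rich members. There, 7 of 36 interferon and 5 of 18 class I genes were called lower. This comparison uses the same PF library as the one before. Over all rule members 61 of 8968 genes were called higher (0.68%) and 377 lower (4.2%). The lower calls were led by hormone and secretory granule genes. Cga, the pituitary glycoprotein hormone subunit, stood at 183, 271 and 0.164 CPM in PF, HS and QS, with 93.7% of its PF UMIs in members under 0.4%. In endothelium-rich members 74 of 8521 genes were called higher (0.868%) and 75 lower (0.88%), and with the 0.2% limit 79 and 85. The median log2 ratio over all genes tested was 0.02.

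Ndnf, a secreted factor that supports neurite growth and vessels (ENSMUSG00000049001, chr6:65671590-65712326, plus strand), led the higher genes. It stood at 163, 149 and 294 CPM in PF, HS and QS, with QS at 1.80 times PF (1.70 to 1.91). After thinning, 28.3%, 25.9% and 41.3% of PF, HS and QS cells held an Ndnf UMI, against 35.9%, 31.7% and 47.2% without thinning. Thinned microglia held it in 0.642%, 0.470% and 0.0977% of cells. Its level was higher in venous-leaning than in arterial-leaning cells, at 212 against 40.7 CPM in PF and 391 against 68.7 CPM in QS. QS was above PF in each of the 3 parts, with 118 against 231 CPM in cells with neither.

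Tfrc, the transferrin receptor that carries iron across the barrier (ENSMUSG00000022797, chr16:32608920-32632794, plus strand), stood at 385 CPM in PF, 350.4 in HS and 609.9 in QS. QS lay at 1.58 times PF (1.52 to 1.65). The arterial-leaning, neither and venous-leaning parts held 265, 405 and 406 CPM in PF and 425, 604 and 633 CPM in QS, and the venous gate 322 and 506 CPM. Haemoglobin genes, which come from red blood cells, were also higher in QS, with 3 of 4 tested genes called and a median log2 ratio of 0.65, and their part in the Tfrc difference was not tested. Car4 (ENSMUSG00000000805, chr11:84957786-84966044, plus strand) stood at 884, 910.1 and 1339 CPM, with QS at 1.52 times PF (1.48 to 1.56). Mfsd2a stood at 219, 217 and 302 CPM, with QS at 1.38 times PF (1.31 to 1.46), under the size set.

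Of the 11 genes on the capillary zonation list 9 lay above a ratio of 1 between QS and PF, 2 were called higher (Tfrc and Car4) and 0 lower, with a median log2 ratio of 0.32. Of the 27 transporters 21 lay above 1, with a median of 0.18 and Tfrc alone called. Tfrc, Mfsd2a, Slc22a8, Slc16a1 and Slc7a5 were on both of these lists, so the lists are not separate and the Tfrc call is the same in both. Among 21 Wnt and barrier transcription factor genes 17 lay above 1, the median was 0.23, and 1 was called. Over all genes 0.868% were called higher and 0.88% lower, and 1 call in a list of 21 or 27 says little of the list. Beside these lists, 10 of the 12 pan-endothelial genes also lay above 1, with a median of 0.11. The median thinned cell held 21 of their UMIs in QS against 19 in PF. Endothelium-rich members were chosen by a minimum share of these same 12 genes, which removed 14.3% of PF and 8.92% of QS members. These values are therefore no independent measure. Over all rule members, where PF held more members poor in endothelial RNA, 11 of the 12 lay above 1, with a median of 0.22. The median thinned cell there held 21 UMIs in QS against 18 in PF. The part of these genes in the list medians was not tested. The Wnt gene called was Apcdd1, a Wnt target and inhibitor, which stood at 314, 307 and 477 CPM in PF, HS and QS, with QS at 1.52 times PF (1.46 to 1.59). The feedback inhibitors Nkd1 and Notum stood at 204 and 102 CPM in PF against 305 and 145 in QS, ratios of 1.49 (1.41 to 1.57) and 1.42 (1.32 to 1.54). Axin2, another Wnt target, stood at 59.3, 51.4 and 73.5 CPM, and the Wnt transcription factor Lef1 at 574.5, 575 and 662 CPM. These 5 Wnt genes were highest in QS, at 1.15 to 1.52 times PF, and 1 of them passed the size set.

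Other genes called higher in QS had varied roles. Ddc, which makes dopamine and serotonin and forms part of the enzymatic barrier of brain capillaries, stood at 142 CPM in PF, 173 in HS and 227 in QS, a ratio of 1.60 (1.502 to 1.70). Sdk1, a cell adhesion molecule, stood at 32.1, 32.9 and 57.6 CPM, a ratio of 1.80 (1.58 to 2.05). The linker histone genes Hist1h1c and H1f0 stood at 67.0 and 89.9 CPM in PF, 54.5 and 65.5 in HS and 110.4 and 137 in QS, with QS at 1.65 (1.503 to 1.81) and 1.52 times PF (1.40 to 1.65). Dbp, a clock output transcription factor, stood at 22.8, 11.4 and 40.3 CPM, with HS at 0.499 of PF (0.399 to 0.622) and QS at 1.77 times PF (1.52 to 2.07). Of the other 14 clock genes tested in endothelium-rich members, 0 were called between HS and PF or between QS and PF. Over all genes 0.616% were called higher and 0.711% lower between HS and PF, and 0.868% and 0.88% between QS and PF. A count of 0 of 14 is thus near the background. Between QS and HS, Per3 and Nr1d1 were called higher along with Dbp, and Per1 lower. Over all rule members Npas2 and Nfil3 were called higher in HS than in PF, with 57.1% and 53.8% of their HS UMIs in members under 0.4%. The sources used here do not state the time of day of each collection.

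In QS, 35 of the 36 interferon genes lay under a ratio of 1 against PF, with a median log2 ratio of -0.43. The genes called lower were Ifi27l2a, Ifit2, Ifitm3, Gbp6, Cxcl10, Stat2 and Parp14, and 0 were called higher. Ifitm3, whose 3 values are given above, lay at 0.618 of PF (0.606 to 0.630). Stat2, a signalling partner of the interferon receptor, stood at 173, 132 and 113 CPM in PF, HS and QS, with QS at 0.653 of PF (0.608 to 0.701). Ifi47, an interferon-induced GTPase, stood at 164, 117 and 94.8 CPM, with QS at 0.577 (0.535 to 0.623). Irf7 lay at 0.717 (0.683 to 0.753), under the size set.

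All 18 class I and immunoproteasome genes lay under 1 between QS and PF as well, with a median log2 ratio of -0.47. The genes H2-Q6, H2-Q7, H2-Q4, Nlrc5 and H2-K1 were called lower. Nlrc5, the transcriptional activator of class I genes, stood at 48.4, 46.5 and 31.0 CPM in PF, HS and QS, with QS at 0.640 of PF (0.558 to 0.734) and HS at 0.961 (0.849 to 1.09). H2-K1 lay at 0.660 (0.648 to 0.673). H2-T23 differed from these, at 279, 202 and 259.9 CPM in PF, HS and QS, with QS at 0.932 of PF (0.886 to 0.980). In endothelium-rich members PF held the highest value of Irf7, Isg15, Ifitm3, Stat2, Psmb8, Psmb9, H2-K1 and B2m.

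**Figure D4:**
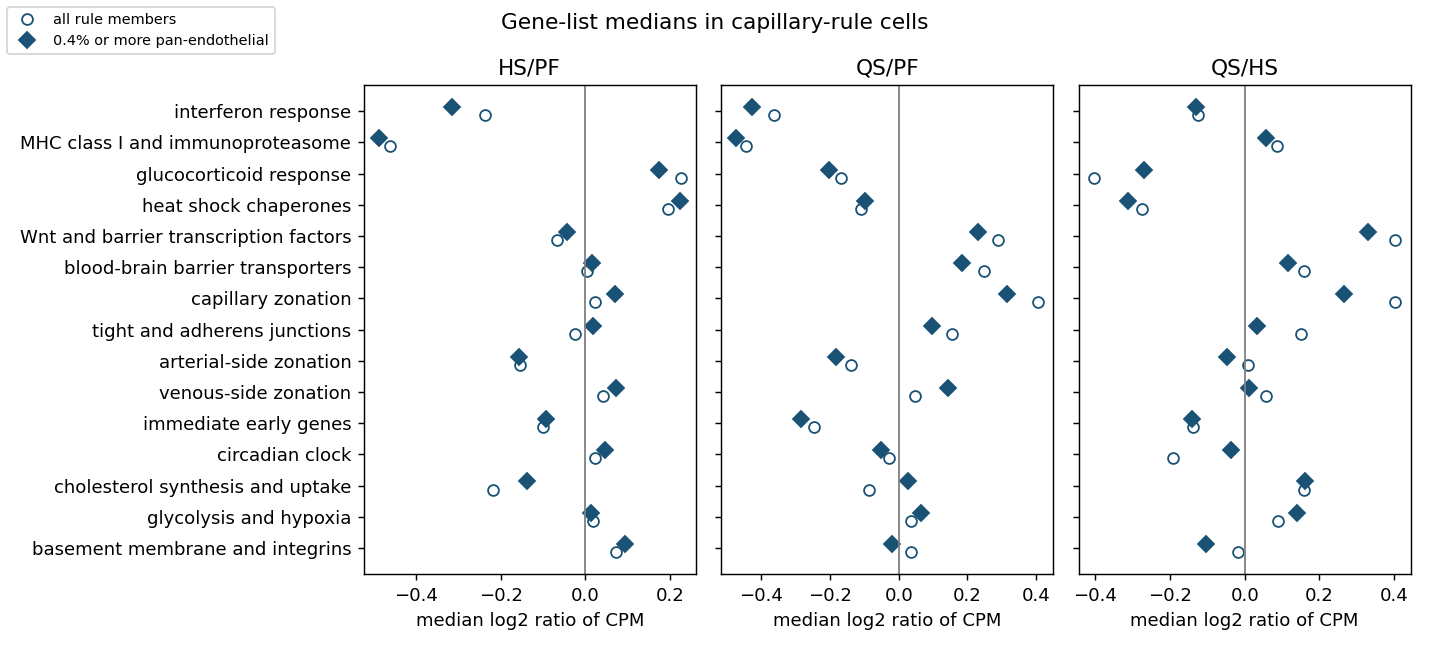
Median log2 ratio of CPM over the genes of 15 lists (rows) for HS against PF, QS against PF and QS against HS (panels), in all rule members (open circles) and in endothelium-rich members (filled diamonds). The interferon and MHC class I medians lie below 0 in HS/PF and QS/PF, and the Wnt, transporter and capillary zonation medians lie above 0 in QS/PF.

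The shift was seen across the distribution of cells. Among endothelium-rich members thinned to 3000 UMIs, the median cell held 23 UMIs of the 36 interferon genes in PF, 17 in HS and 15 in QS. The cells at the 10th percentile held 11, 6 and 6, and those at the 90th percentile 41, 36.2 and 34. For the 18 class I and immunoproteasome genes the medians were 25, 18 and 18 UMIs, with 15, 9 and 8 at the 10th and 39, 31 and 34 at the 90th percentile. For the glucocorticoid list the medians were 25, 26 and 21 UMIs, and for the chaperones 81, 91 and 75. The distributions of all libraries overlapped widely for each list. Cells are not replicates, so these are descriptions of 3 libraries.

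**Figure D5:**
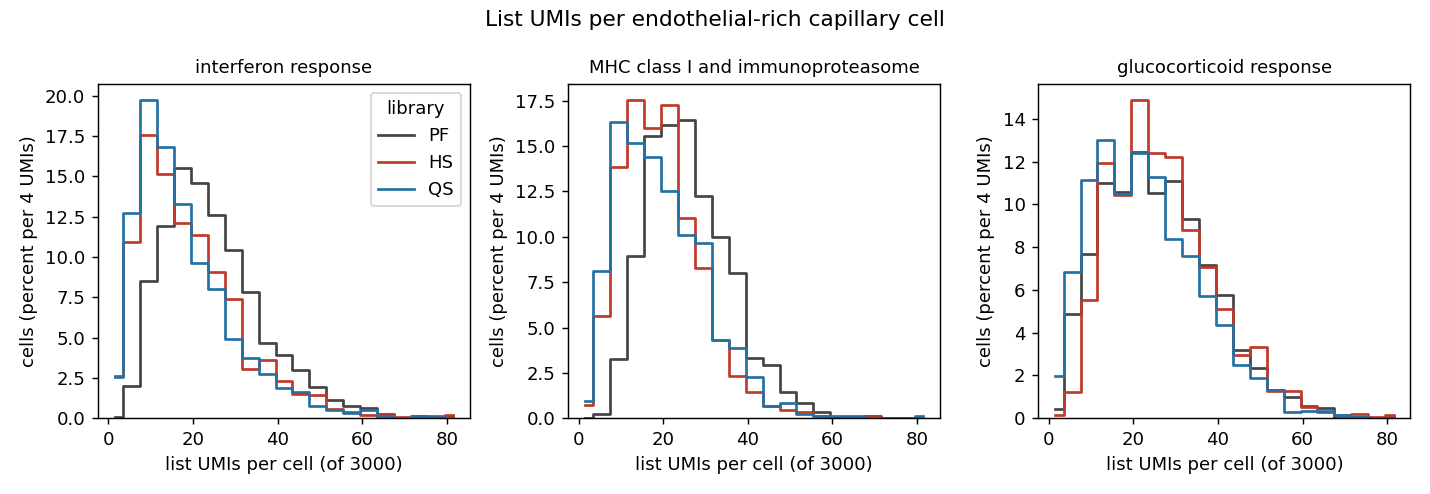
Percent of endothelium-rich capillary cells (vertical axis, per 4 UMIs) by the number of UMIs of a gene list among 3000 UMIs of the cell (horizontal axis; the last bin holds all higher cells), for PF (grey), HS (red) and QS (blue). The PF curves of the interferon and MHC class I lists lie to the right of the HS and QS curves, with medians of 23, 17 and 15 and of 25, 18 and 18 UMIs, while the glucocorticoid curves, with medians of 25, 26 and 21 UMIs, overlap more, and that of QS lies to the left.

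Between QS and HS, 8 of 22 genes on the glucocorticoid list were called lower in QS, and 4 of 21 on the Wnt and barrier transcription factor list higher and 1 lower, in endothelium-rich members. Over all rule members 108 of 9034 genes were called higher in QS (1.2%) and 495 lower (5.48%). In endothelium-rich members 118 of 8518 were called higher (1.39%) and 127 lower (1.49%), and with the 0.2% limit 104 and 161. The median log2 ratio over all genes tested was 0.04. Of 22 glucocorticoid genes 8 were called lower in QS (Zbtb16, Fkbp5, Map3k6, Tsc22d3, Per1, Ddit4, Angptl4 and Cebpd) and 0 higher, with a median of -0.27. Zbtb16 in QS lay at 0.0303 of the HS level (0.0231 to 0.0391), Tmem252 at 0.230 (0.215 to 0.246), Scgb3a1 at 0.247 (0.221 to 0.276) and Tsc22d3 at 0.471 (0.447 to 0.495). Per1, a clock gene that glucocorticoids induce, stood at 53.5, 65.7 and 38.3 CPM in PF, HS and QS, with QS at 0.582 of HS (0.515 to 0.657).

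Of 21 Wnt and barrier transcription factor genes 4 were called higher in QS than in HS (Sox18, Notum, Apcdd1 and Nkd1) and 1 lower (Fzd4), with a median log2 ratio of 0.33. Sox18 lay at 1.79 times HS (1.69 to 1.89), Notum at 1.71 (1.57 to 1.85) and Apcdd1 at 1.55 (1.49 to 1.62). Fzd4, a Wnt and norrin receptor, stood at 75.3, 103 and 66.0 CPM in PF, HS and QS, with QS at 0.641 of HS (0.583 to 0.704). Cirbp lay at 2.054 times HS (1.87 to 2.26), and the linker histone H1f0 at 2.09 times (1.91 to 2.29). For the chaperones the median was -0.31, with 20 of 22 genes under 1 and Ahsa2 called lower. The 36 interferon genes had a median of -0.13 and the 18 class I genes 0.06, with 0 called in either direction in either list.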

How the data were processed

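Cells were captured with the 10x Chromium 3′ kit, version 3, per the labels' protocols. Each library was deposited as 1 filtered matrix of raw UMI counts, with 32285 genes and no normalization. The submitters' processing notes name Cell Ranger 5.0.0, Seurat 3.1.2 and the mm10 build, while the matrix headers name Cell Ranger 7.0.1, and which of these made the counts was not settled. Coordinates come from the GRCm38 (mm10) annotation and promoter windows from RefSeq (GRCm38.p6), without genes of 1 chromosome.

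CPM were computed from UMIs added up over the members of a library. Ratios carry exact conditional binomial 95% intervals, which treat UMIs as independent draws and cover counting error only. A gene was tested with at least 30 UMIs and 10 CPM in the library with more, and called when the ratio reached 1.5 in either direction and its interval excluded 1. The calls were tested on simulated counts with known changes. With 1 library per group no p-value was computed. Shares of cells were compared after thinning to 3000 UMIs, which left out 881 PF, 698 HS and 681 QS members. The lists left out the rule genes, and 78 symbols with several identifiers were kept out of named genes.

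Named genes were the 10 highest and 10 lowest ratios per comparison with at least 50 CPM, and the leading members of each list, in rule members and in endothelium-rich members, and the text describes part of them. Members and lists were chosen with earlier results of these data known. The endothelium-rich limit was chosen after seeing the data. Doublets were left in for the values reported. Scrublet, run in Scanpy 1.11.5, marked 2.54%, 2.57% and 2.96% of PF, HS and QS members. Among members under 0.4% it marked 9.7%, 9.41% and 16.6%, and among endothelium-rich members 1.34%, 1.28% and 1.62%. Leaving out the marked barcodes was an alternative. Other alternatives were the scaling, the CPM minimum, the fold, the marker limits, the UMI minimum, the mitochondrial limit and the mean over cells. In a further alternative, 5% of the members' UMIs were subtracted as free RNA with the profile of the whole library. Python 3.11.15, NumPy 2.4.6, SciPy 1.17.1 and pandas 2.3.3 were used.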

Additional observations from a re-analysis of the deposited data

How the results depend on the processing

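Counts of genes called among all rule members were 212 higher and 131 lower for HS against PF, 61 and 377 for QS against PF, and 108 and 495 for QS against HS. In the same order, a minimum of 50 CPM gave 52 and 31, 16 and 66, and 39 and 105, and a minimum of 2 CPM 544 and 327, 146 and 997, and 210 and 1262, since the minimum sets how many genes are tested. A fold of 2 gave 83 and 40, 6 and 194, and 12 and 255. The mean of CPM over cells gave 129 and 116, 103 and 202, and 165 and 305. Subtracting 5% of UMIs as free RNA gave 207 and 136, 62 and 407, and 119 and 521. At least 5 of 6 markers gave 120 and 73 for HS against PF, 137 lower for QS against PF and 237 lower for QS against HS. With no venous or arterial limit the counts were 118 and 72, 32 and 180, and 63 and 289. The 0.2% endothelial limit gave 82 and 54, 79 and 85, and 104 and 161, and the 0.4% limit 52 and 60, 74 and 75, and 118 and 127. The cause of these moves was not tested beyond the removal of the members poor in endothelial RNA.

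The shares of members in PF, HS and QS were 18.04%, 17.3% and 18.01% with 5 markers, 22.2%, 21.1% and 20.8% with 3 markers, and 31.8%, 30.7% and 28.4% with no venous or arterial limit. At most 10% mitochondrial UMIs gave 20.75% in PF and 20.2% in QS, and leaving out Scrublet calls 20.75% in PF. The 0.2% limit gave 18.7% in PF and 17.8% in HS, and the 0.4% limit 17.1%, 15.9% and 17.6%.

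Some named genes and list medians changed direction. With the 0.2% limit the ratios were 3.09 for Cck and 1.30 for Chga (HS/PF), 2.19 for Efna5 (QS/PF) and 1.03 for Pomc (QS/HS). With the 0.4% limit they were 1.02 for Cd74 (QS/PF) and 1.04 for Pomc (QS/HS). With 5 markers they were 1.27 for Efna5 (QS/PF), 1.05 for H2-Ab1 and 1.04 for H2-Eb1 (HS/PF) and 1.02 for Pomc (QS/HS), and with 3 markers 1.42 for Scn7a (QS/PF). The arterial-side list median was 0.018 (HS/PF) and 0.034 (QS/PF) with no venous or arterial limit, and the cell cycle median -0.041 (HS/PF) with 3 markers. The other named ratios that passed the size set over all rule members kept their direction under each alternative in which the gene was still tested. Each alternative started from all rule members, and none was combined with the 0.4% limit. The ratios given for endothelium-rich members were thus not themselves varied. Ratios of genes that fell under the minimum in an alternative were not assessed there. Of the recomputed ratios 147 no longer passed the limits of their alternative, 67 of them because the fold was raised to 2 with the ratio unchanged. Another 47 passed only under an alternative.

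Over 14 alternatives the interferon list median ranged from -0.31 to -0.16 for HS against PF and from -0.43 to -0.26 for QS against PF, and the class I median from -0.49 to -0.44 and from -0.48 to -0.36. For HS against PF the lowest value of both lists was that of the 0.4% limit, used in most of the text. All rule members gave -0.24 and -0.46 for HS against PF, and -0.36 and -0.45 for QS against PF. The glucocorticoid median ranged from 0.16 to 0.25 and from -0.25 to -0.16. No paired analysis was possible because each group had 1 library, and for the same reason no library could be left out. Levels under 10 CPM, such as those of Fkbp5 in PF and QS, rest on few UMIs.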
